A study of Homo sapiens with 6 samples.

Results

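The genes described here are 10 genes of the subcortical maternal complex and of the reproductive NLRP family: KHDC3L, OOEP, TLE6, PADI6, NLRP2, NLRP4, NLRP5, NLRP7, NLRP9 and NLRP11. They were chosen by gene symbol, and all 10 were found among the 53712 genes of the deposited count table. Poly(A) RNA was sequenced from H9 cells, a widely used human embryonic stem cell line, in PXGL, a medium for naive culture, with 3 libraries in each of 2 groups. ASO-L1 cells received 25 nM of an antisense oligonucleotide against the retrotransposon LINE-1, and SO-L1 cells, the control, 25 nM of the sense oligonucleotide. Both groups also received 0.7 µM trans-ISRIB, which blocks the integrated stress response, 5 µM emricasan, a caspase inhibitor, and 10 µM of the ROCK inhibitor Y-27632. These 3 compounds were removed after 24 hours, and RNA was taken from unsorted cells at 48 hours. All libraries come from 1 cell line. The labels do not say whether replicates were separate cultures, so each p-value reflects the spread among these libraries alone, and that spread may be technical.

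In mammalian oocytes and cleavage embryos, NLRP5, OOEP, TLE6 and KHDC3L assemble beneath the cell membrane, and PADI6 is a component of the cytoplasmic lattices of the same cells. Loss of NLRP5, TLE6 or PADI6 from the mother halts the early embryo in mice, and variants of KHDC3L and NLRP7 in women are known for recurrent hydatidiform mole. NLRP proteins carry a pyrin domain, an ATPase domain and leucine-rich repeats, and several of them are expressed mainly in oocytes. KHDC3L was also named as a transcript of embryonic stem cells, and NLRP2 and NLRP7 are known to be transcribed in human pluripotent cells.

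The members lie on 3 chromosomes. KHDC3L and OOEP are neighbours on chromosome 6, PADI6 is on chromosome 1, and TLE6 and the 6 NLRP genes are on chromosome 19. The promoter windows of KHDC3L and NLRP4, the members called lower, and of NLRP2 and NLRP7, the members with the most reads, are shown because these genes carry the results below and their windows share CCAAT and GGGCGG, short elements of many promoters. Each window holds 300 bases, 250 before and 50 after the annotated start, 5′ to 3′ on the gene's strand, from RefSeq on GRCh38.p14. All 10 members had a window, and where a gene has several the first listed was used. Positions are chr6:73362408-73362707 on the plus strand for KHDC3L, chr19:55836290-55836589 on the plus strand for NLRP4, chr19:54966124-54966423 on the plus strand for NLRP2 and chr19:54947481-54947780 on the minus strand for NLRP7. Capitals mark the CCAAT box.
KHDC3L: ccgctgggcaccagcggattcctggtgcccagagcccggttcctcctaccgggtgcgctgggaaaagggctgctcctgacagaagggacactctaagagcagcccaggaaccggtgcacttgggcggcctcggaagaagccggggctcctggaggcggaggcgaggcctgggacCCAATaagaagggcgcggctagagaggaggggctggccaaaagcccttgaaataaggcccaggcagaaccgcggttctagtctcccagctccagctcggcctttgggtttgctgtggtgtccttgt
NLRP4: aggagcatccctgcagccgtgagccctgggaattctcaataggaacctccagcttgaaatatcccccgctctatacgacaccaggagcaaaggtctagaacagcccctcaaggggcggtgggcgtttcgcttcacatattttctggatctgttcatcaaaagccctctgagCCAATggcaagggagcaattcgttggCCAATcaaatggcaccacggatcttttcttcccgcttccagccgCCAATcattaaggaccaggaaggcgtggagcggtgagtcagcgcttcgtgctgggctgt
NLRP2: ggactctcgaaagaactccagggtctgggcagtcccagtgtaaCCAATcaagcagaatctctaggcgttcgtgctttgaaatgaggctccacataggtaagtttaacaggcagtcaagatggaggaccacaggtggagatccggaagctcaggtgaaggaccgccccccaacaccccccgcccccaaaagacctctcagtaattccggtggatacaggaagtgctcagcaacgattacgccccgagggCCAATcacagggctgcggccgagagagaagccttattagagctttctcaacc
NLRP7: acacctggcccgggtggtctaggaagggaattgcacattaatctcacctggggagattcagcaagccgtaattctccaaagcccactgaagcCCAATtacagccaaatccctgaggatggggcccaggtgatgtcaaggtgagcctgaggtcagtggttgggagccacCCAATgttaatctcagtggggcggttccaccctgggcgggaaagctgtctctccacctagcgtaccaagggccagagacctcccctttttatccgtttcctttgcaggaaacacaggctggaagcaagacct

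CCAAT, read on either strand, was present in 9 of the 10 member windows, all but NLRP9, against 35.7% of the 27305 windows in the table. It occurs 3 times in the NLRP4 window, at 79, 53 and 9 bases before the start, and once in that of KHDC3L, at 76 bases before the start. OOEP also holds it at 76 bases before its start. The only CCAAT of the NLRP11 window is the NLRP4 site at 9 bases before the NLRP4 start, read from the opposite strand. That site is counted for both members, so their windows are not independent. The other 7 motifs searched, on both strands, were GGGCGG in 6 members, KHDC3L, NLRP4, NLRP2 and NLRP7 among them (44.6% of all windows), CAGGTG in 5 (20.6%), CCACCC in 4 (33.4%), CAGCTG in 3 (17.7%), TATAAA in NLRP11 (3264 windows in all), TAATTG in NLRP7 (7.58%) and the octamer ATGCAAAT in none (1.8%). In NLRP7, TAATTG on the antisense strand overlaps a CCAAT box, and 1 CCACCC overlaps the other CCAAT box. A match describes the letters only. The starts of NLRP4 and NLRP11 face each other from opposite strands, and their windows share 64 bases. In GENCODE v29 their exons overlap by 223 bases, and the library kit was directional. Whether counting used strand is unknown, so reads of the shared stretch may not be told apart.

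Library totals ran from 23330875 to 31164287 counts in ASO-L1 and from 24027869 to 30956692 in SO-L1. Of the 10 naive markers all had reads, but KLF17, a transcription factor typical of naive cells, averaged only 0.395 ± 0.146 CPM (counts scaled to library size, TMM-normalised; SD, n = 3) in ASO-L1 and 0.743 ± 0.196 in SO-L1 (n = 3), while the core factor POU5F1 was at 1136 ± 79.4 CPM in ASO-L1 and 1266 ± 67.7 in SO-L1. The summed naive marker level ran from 271 to 302 CPM in ASO-L1 and from 283 to 291 in SO-L1. Of 9 tested naive markers 3 were called lower (DPPA3, DNMT3L and SUSD2) and 2 higher (TFCP2L1 and KLF4), with a median log2 fold change of -0.47. The summed core level ran from 3477 to 3998 CPM in ASO-L1 and from 4057 to 4397 in SO-L1, without overlap. Of 8 core markers PRDM14 alone was called, lower (-0.39 ± 0.08, adjusted p = 0.00672 by edgeR). With the replicate number as a block, edgeR also called NANOG (adjusted p = 0.00396), UTF1 (0.00932), LIN28A (0.0301) and POU5F1 (0.0391) lower. SOX2, SALL4 and LIN28B were not called in that fit, which called 22.5% of all tested genes lower. Oocyte markers were low. BMP15 and H1FOO had no read in any library, which allows at most 3 counts in each, ZP2, ZP4 and FIGLA had 2, 1 and 4 reads over all libraries and ZP3 had 39. GDF9, an oocyte growth factor gene, had 89 reads and averaged 0.765 ± 0.298 CPM in ASO-L1 and 0.372 ± 0.0983 in SO-L1 (1.01 ± 0.41, adjusted p = 0.0823, and 0.0314 with the replicate number as a block). The summed oocyte and granulosa level, 8.57 to 21.1 CPM in ASO-L1 and 4.08 to 4.90 in SO-L1, was mostly AMH, a granulosa hormone gene. AMH (1.83 ± 0.32, adjusted p = 0.00487) and the granulosa factor FOXL2 (1.54 ± 0.48, 0.0324) were called higher, 2 of the 3 tested markers of that list. Markers of other cell types were called higher in part: 4 of 7 tested primed markers, 4 of 10 trophectoderm, 2 of 5 primitive endoderm, 3 of 7 fibroblast and both tested immune markers, with none of these called lower. Over all tested genes 18% were called higher and 15.7% lower. THY1 counts in both the primed and the fibroblast list. The tested immune markers were CD14 and CSF1R, with 91 and 229 reads in all. PTPRC, CD68 and LYZ had 7, 1 and 5 reads. AIF1, also below the count filter, averaged 0.253 CPM in ASO-L1 and 0.432 in SO-L1. Of 13 tested markers of the human cleavage stage, 2 were called higher and none lower, at a summed 34.0 to 42.3 CPM in ASO-L1 and 29.9 to 43.3 in SO-L1. The summed trophectoderm level was 342 to 388 CPM in ASO-L1 and 305 to 324 in SO-L1, and the summed fibroblast level 653 to 753 in ASO-L1 and 544 to 608 in SO-L1. Their part in the members' values was not tested. In bulk RNA, fewer cells of a type and less RNA per cell cannot be told apart.

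Of the 10 members, 6 had enough reads to be tested. KHDC3L fell to about 38.3% of the control level and NLRP4 to 59.4%, while TLE6, NLRP2, NLRP7 and NLRP11 did not pass the test. So 2 of 6 tested members were called, both lower, where 33.7% of all 16873 tested genes were called and 15.7% called lower. The median log2 fold change was -0.31 over the 6 and -0.01 over all tested genes. All ASO-L1 libraries lay below all SO-L1 libraries for 3 of the 6, against 25.1% of tested genes. With only 6 genes tested, these counts are descriptions of the members.

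**Figure D1:**
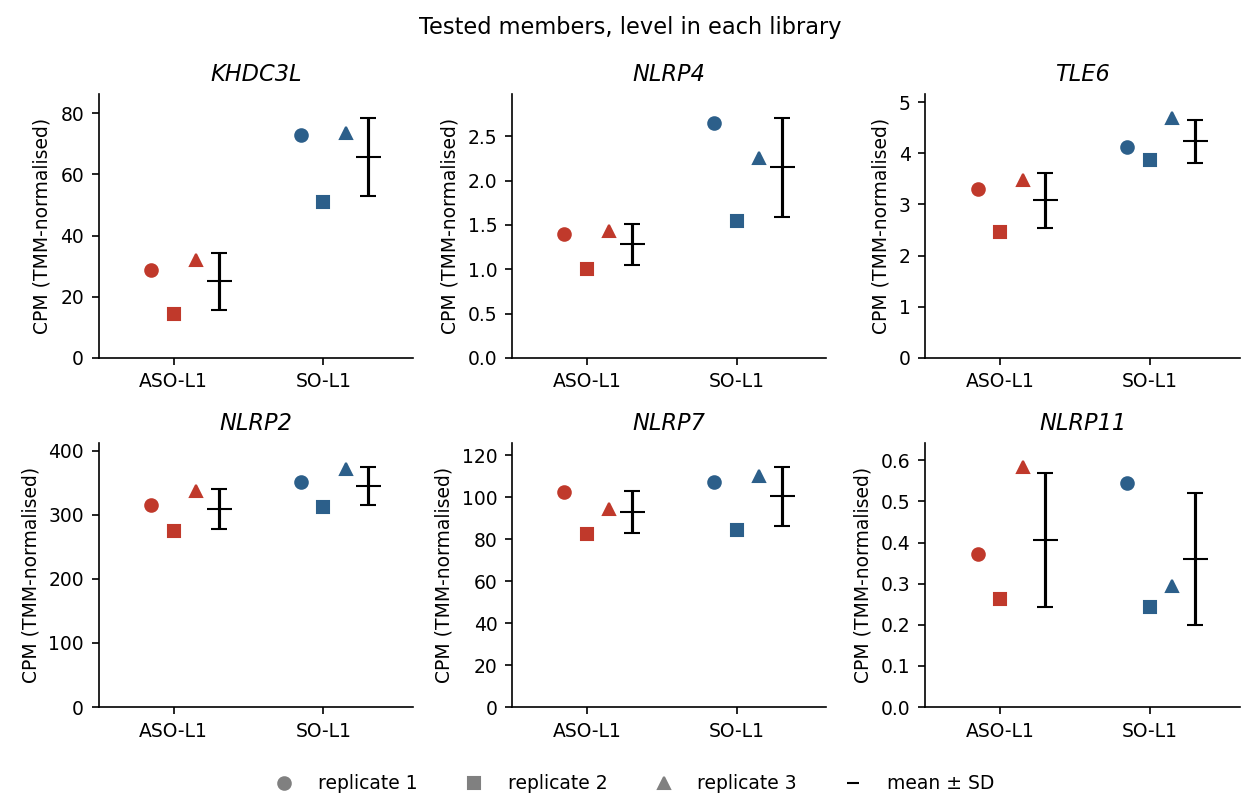
TMM-normalised CPM of the 6 tested members in each library, ASO-L1 left and SO-L1 right, with marker shapes for the replicate number and bars for mean ± SD (n = 3). The groups separate for KHDC3L, NLRP4 and TLE6 and overlap for NLRP2, NLRP7 and NLRP11, and replicate 2 is the lowest library of both groups in each panel.

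KHDC3L encodes a KH-domain protein of the subcortical complex. It had 696, 329 and 985 reads in ASO-L1 replicates 1 to 3, against 2274, 1249 and 2252 in SO-L1. On the CPM scale these were 28.7, 14.4 and 32.0 in ASO-L1 and 72.8, 50.8 and 73.5 in SO-L1. The groups did not overlap, and the highest ASO-L1 library was well below the lowest SO-L1 library. The log2 fold change was -1.39 ± 0.31 (SE), adjusted p = 0.0186 (quasi-likelihood test of edgeR, p-values adjusted after Benjamini and Hochberg over all tested genes). Only 0.326% of tested genes had a lower log2 fold change. Within replicate numbers 1, 2 and 3 the log2 difference, with 0.5 CPM added, was -1.33, -1.78 and -1.19. The authors' deposited table gives KHDC3L a log2 fold change of -1.45 with an adjusted p of 0.00480, and of its 20964 genes 21.4% have an adjusted p under 0.05, 9.77% being lower. The authors' deposited batch-corrected log2 values for KHDC3L were 4.62, 4.42 and 4.71 in ASO-L1 and 5.99, 6.13 and 5.90 in SO-L1. KHDC3L was no longer called when ASO-L1 replicate 1 was left out (adjusted p = 0.0533 by edgeR), nor without SO-L1 replicate 3 (0.0569), without replicate 1 (0.0551) or 3 (0.0873) of both groups, or with no filter on low counts (0.101). With no filter 18.3% of genes were called and 8.93% called lower. Of all tested genes 25.9% were called without ASO-L1 replicate 1 and 17.5% without SO-L1 replicate 3. Leaving out replicate 1 of both groups called 6.95%, and leaving out replicate 3 of both groups 16.9%. KHDC3L was called in 13 of the 18 alternatives. Among these were DESeq2 (adjusted p = 0.00137), limma-voom (0.00367) and edgeR with the replicate block (8.07e-09). Over all 18 alternatives its log2 fold change stayed between -1.61 and -1.12.

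NLRP4, an NLRP gene of the germline, was far lower in reads. The ASO-L1 libraries held 34, 23 and 44 reads and the SO-L1 libraries 83, 38 and 69, which is 1.40, 1.01 and 1.43 CPM in ASO-L1 and 2.66, 1.55 and 2.25 CPM in SO-L1. The groups did not overlap, although ASO-L1 replicate 3 came close to SO-L1 replicate 2. The log2 fold change of NLRP4 was -0.75 ± 0.26 (SE), adjusted p = 0.0443 by edgeR. DESeq2 (adjusted p = 0.065) and limma-voom (0.0576) did not call NLRP4, nor does the authors' deposited table, with -0.74 and an adjusted p of 0.0850. DESeq2 called 32.2% of all genes, 14.8% lower, and limma-voom 33.7%, 15.6% lower. The call was also lost without ASO-L1 replicate 1 (0.0785), 2 (0.0963) or 3 (0.0582), without SO-L1 replicate 1 (0.176) or 3 (0.123), and without replicate 1 (0.258) or 3 (0.136) of both groups.

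TLE6, a Groucho-family protein that binds NLRP5 and OOEP in the complex, had 80, 56 and 107 reads in ASO-L1 and 129, 95 and 144 in SO-L1. That is 3.30, 2.46 and 3.47 CPM in ASO-L1 and 4.13, 3.87 and 4.70 CPM in SO-L1. The groups did not overlap, yet the test without a replicate term was not passed (log2 fold change -0.45 ± 0.18, adjusted p = 0.0701 by edgeR). With the replicate number as a block TLE6 was called lower (-0.46 ± 0.15, adjusted p = 0.0214), the only 1 of 18 alternatives to call it. The block without replicate 2 of both groups did not (-0.38, adjusted p = 0.0577). The authors' deposited table gives -0.48 with an adjusted p of 0.104.

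NLRP2 and NLRP7, whose variants in mothers are linked to disturbed imprinting in the offspring, held most of the members' reads. NLRP2 had 315, 275 and 337 CPM in ASO-L1 and 351, 312 and 371 in SO-L1. The groups overlapped, with ASO-L1 replicates 1 and 3 above SO-L1 replicate 2. Its log2 fold change was -0.16 ± 0.09 (adjusted p = 0.189 by edgeR), and with the replicate block -0.16 ± 0.06 (0.028), which is a call of a small difference. NLRP7 had 102, 82.4 and 94.5 CPM in ASO-L1 and 107, 84.5 and 110 in SO-L1, also overlapping. Its log2 fold change was -0.11 ± 0.11 (adjusted p = 0.461), and it was not called with the block either (0.172). Leaving out replicate 2 of both groups brought calls of NLRP2 (-0.15, adjusted p = 0.0152) and NLRP7 (-0.14, 0.03), in a fit that called 41.7% of all genes and 20.1% lower.

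NLRP11, which faces NLRP4, had fewer reads still. There were 9, 6 and 18 reads in ASO-L1 and 17, 6 and 9 in SO-L1, or 0.371, 0.263 and 0.584 CPM in ASO-L1 and 0.544, 0.244 and 0.294 CPM in SO-L1. The groups overlapped throughout, and the log2 fold change of 0.19 ± 0.45 (adjusted p = 0.776 by edgeR) is too imprecise to separate a rise from a fall. At these counts a change of the size of NLRP4's was not detectable in NLRP11, and the difference between both genes was not tested.

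With the replicate block 4 of the 6 tested members were called, all lower, against 45.7% of all tested genes called and 22.5% called lower in that fit. Replicate 2 was the lowest library of both groups in all 6 tested members, against 21.7% of tested genes. It is the library number that stood apart in each group on the first principal component, at -58.9 in ASO-L1 replicate 2 (-22.3 and -18.9 in the other two) and 21.3 in SO-L1 replicate 2 (38.3 and 40.5).

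**Figure D2:**
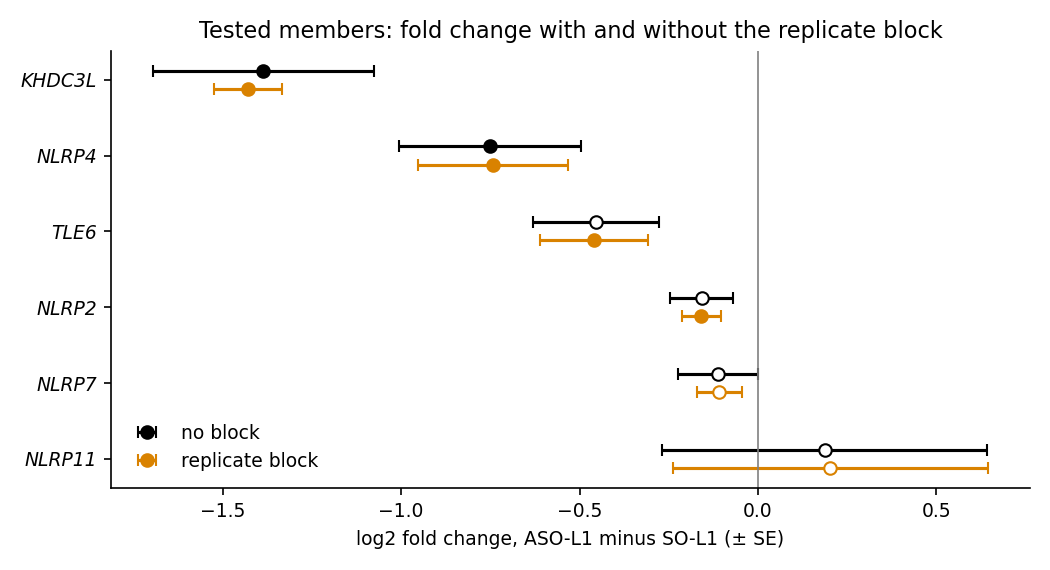
Log2 fold change of each tested member (ASO-L1 minus SO-L1, ± SE) without the replicate block (black) and with it (orange). Filled points have an adjusted p under 0.05: KHDC3L and NLRP4 in both fits, TLE6 and NLRP2 with the block only.

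**Figure D3:**
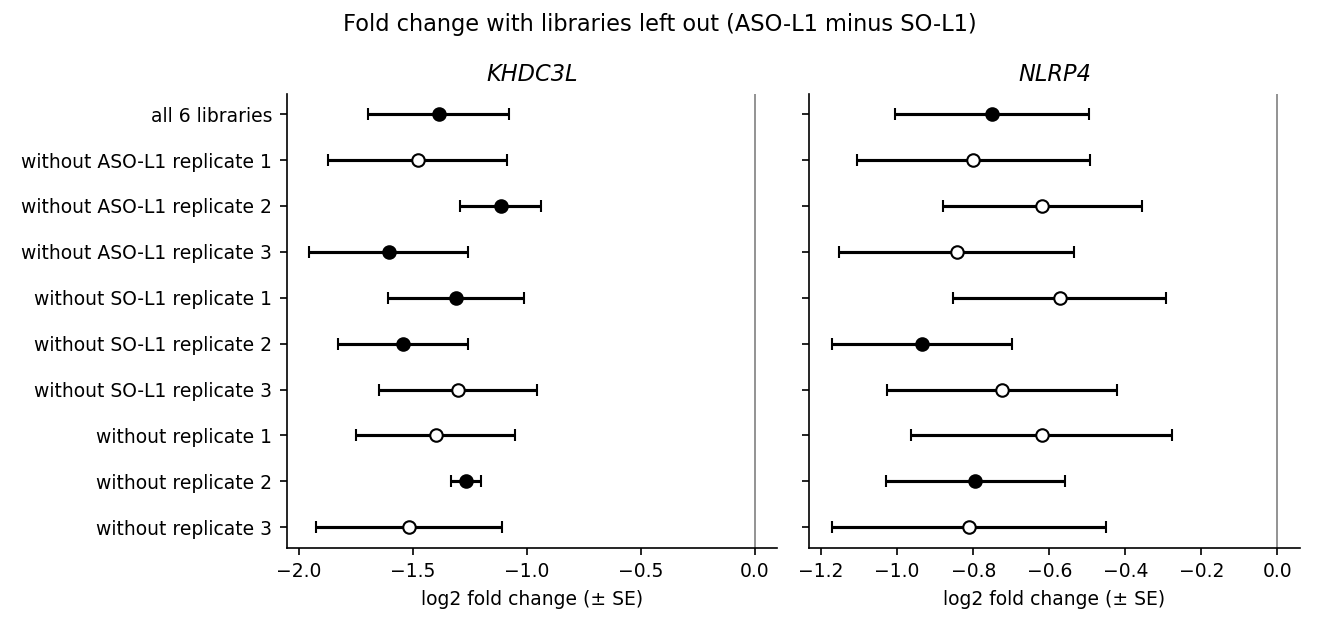
Log2 fold change (± SE) of KHDC3L and NLRP4 with all 6 libraries and with libraries left out, by edgeR. Filled points have an adjusted p under 0.05. KHDC3L stays between -1.61 and -1.12, and the open points show where the call was lost.

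Ratios between members within a library do not depend on scaling between libraries. The log2 ratio of KHDC3L to NLRP2 reads was -3.46, -4.25 and -3.40 in ASO-L1 and -2.27, -2.62 and -2.34 in SO-L1, a difference of -1.29 ± 0.30 (SE). Against NLRP7 the difference was -1.35 ± 0.29, against TLE6 -0.98 ± 0.24 and against NLRP4 -0.73 ± 0.22. In each of these the groups did not overlap, and the two-sided exact permutation test gave p = 0.1, the smallest that 3 against 3 libraries allow (0.117 adjusted over the 7 ratios tried). TLE6 to NLRP2 (-0.31 ± 0.08) and NLRP4 to NLRP2 (-0.56 ± 0.19) gave the same p. NLRP7 to NLRP2 did not separate, at -1.62, -1.74 and -1.84 in ASO-L1 and -1.71, -1.89 and -1.76 in SO-L1 (0.05 ± 0.08, exact permutation p = 0.5).

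As a share of all reads of the 10 members, KHDC3L held 6.35% (95% Wilson interval 5.91 to 6.82), 3.84% (3.46 to 4.27) and 6.82% (6.42 to 7.24) in ASO-L1. In SO-L1 it held 13.5% (13.01 to 14.04), 11.2% (10.6 to 11.8) and 13.1% (12.6 to 13.6). NLRP2 held 69.7%, 73.2% and 71.8% in ASO-L1 and 65.1%, 68.8% and 66.0% in SO-L1. Intervals cover counting error only, since reads without molecular identifiers are not independent molecules. The members' summed level was 452, 375 and 469 CPM in ASO-L1 and 539, 453 and 562 CPM in SO-L1, so that SO-L1 replicate 2 alone lay within the ASO-L1 range.

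Levels between genes were compared per kilobase of exon in GENCODE v29, which may differ from the annotation used for counting. KHDC3L, with 1018 exon bases, averaged 24.6 ± 9.17 CPM per kilobase in ASO-L1 and 64.5 ± 12.7 in SO-L1 (SD, n = 3 each). NLRP2, with 6313 exon bases, averaged 49.0 ± 5.00 CPM per kilobase in ASO-L1 and 54.6 ± 4.77 in SO-L1, and NLRP7 averaged 23.8 ± 2.59 in ASO-L1 and 25.7 ± 3.58 in SO-L1. In ASO-L1 KHDC3L was thus below NLRP2 in every library, at 28.2, 14.2 and 31.4 for KHDC3L and 49.95, 43.5 and 53.4 CPM per kilobase for NLRP2. It did not differ from NLRP7 beyond the spread there. In SO-L1 KHDC3L was at 71.5, 49.9 and 72.2 and NLRP2 at 55.6, 49.4 and 58.8 CPM per kilobase, so KHDC3L was above it in replicates 1 and 3 and level with it in replicate 2. NLRP7 was at 27.4, 21.6 and 28.1 CPM per kilobase in SO-L1, below KHDC3L in every library. TLE6 averaged 0.843 ± 0.149 CPM per kilobase in ASO-L1 and 1.16 ± 0.117 in SO-L1, NLRP4 0.328 ± 0.0603 in ASO-L1 and 0.551 ± 0.144 in SO-L1, and OOEP, NLRP11, NLRP9, NLRP5 and PADI6 all lay below 0.2.

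The other 4 members had too few reads to be tested. OOEP, the KH-domain partner of KHDC3L in the complex, had 11, 2 and 4 reads in ASO-L1 and 7, 4 and 5 in SO-L1. NLRP5, the scaffold known as MATER, had 3, 0 and 1 reads in ASO-L1 and 2, 2 and 0 in SO-L1. PADI6 had 1, 0 and 0 reads in ASO-L1 and 3, 1 and 0 in SO-L1, and NLRP9 3, 0 and 2 in ASO-L1 and 5, 2 and 4 in SO-L1. The groups overlapped in all 4 genes. A library with 0 reads allows up to 3 counts, between 0.0974 and 0.132 CPM in the libraries concerned. Tested without a filter on low counts, none passed edgeR (adjusted p = 0.842 for OOEP, 0.978 for NLRP5, and 0.576 for both PADI6 and NLRP9). The SE of the log2 fold change in that fit was 0.669 for OOEP, 1.02 for NLRP9, 1.42 for NLRP5 and 1.97 for PADI6. Small or moderate changes in these 4 genes could thus not be seen at this depth, and no detection limit was computed. The exons of OOEP share 475 of their 1467 bases with DDX43 and OOEP-AS1, and those of NLRP9 share 613 of 3599 with EPN1, on the opposite strand in each case, where the limit on strand also holds.

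**Figure D4:**
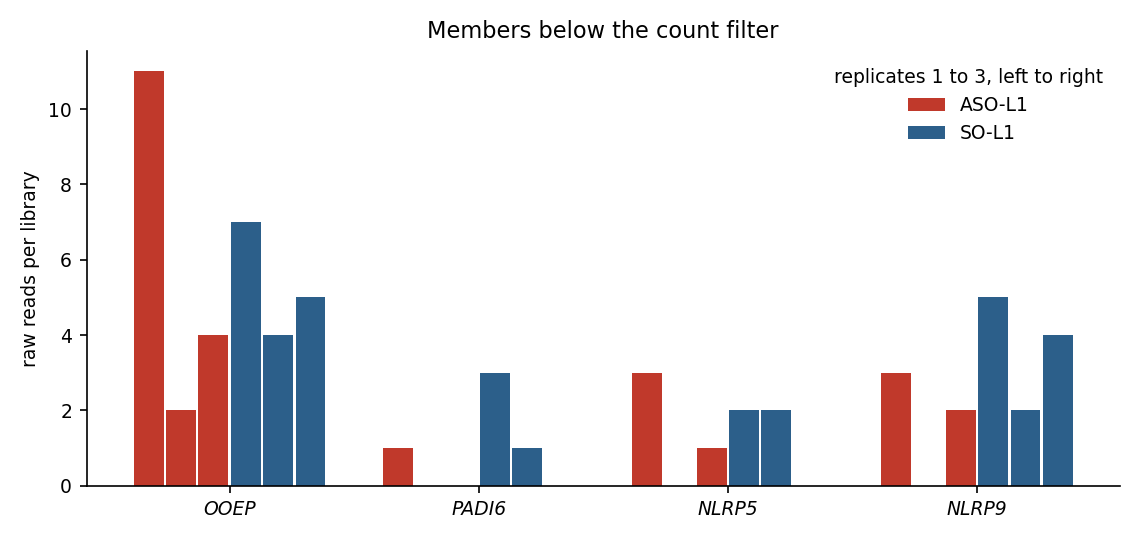
Raw reads per library of the 4 members below the count filter, ASO-L1 replicates 1 to 3 left of SO-L1 replicates 1 to 3 for each gene. No library of any of these genes reached more than 11 reads, and PADI6 had at most 3.

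The chromosome 6 neighbours of KHDC3L were examined by their order in RefSeq. DPPA5, the next tested gene on 1 side and a KH-domain gene of pluripotent cells, had 18.9, 8.95 and 23.1 CPM in ASO-L1 and 40.3, 22.1 and 40.1 in SO-L1. The highest ASO-L1 library of DPPA5 passed the lowest SO-L1 library, both groups were lowest in replicate 2, and the log2 fold change was -1.003 ± 0.40 (adjusted p = 0.107 by edgeR, 3.21e-07 with the replicate block). DDX43, an RNA helicase gene beyond OOEP, had 1.16, 0.395 and 0.584 CPM in ASO-L1 and 1.73, 1.22 and 1.31 in SO-L1, without overlap (-1.01 ± 0.36, adjusted p = 0.0530, and 0.00828 with the block). MB21D1, which encodes the DNA sensor cGAS, fell to 19.98, 16.7 and 19.5 CPM in ASO-L1, against 26.4, 24.8 and 26.6 in SO-L1 (-0.47 ± 0.09, adjusted p = 0.00537, though 0.0696 without replicate 1 of both groups). KHDC1 (-0.17 ± 0.17, adjusted p = 0.460), OGFRL1 (-0.27 ± 0.18, 0.270) and MTO1 (-0.02 ± 0.07, 0.868) did not pass, and KHDC1L had 9 reads in all. Around the 5 member loci together, 2 of 30 tested neighbours were called lower and 2 higher, against 15.7% and 18% of all tested genes. On chromosome 19, beside NLRP7 and NLRP2, the retinol dehydrogenase gene RDH13 rose (0.51 ± 0.11, adjusted p = 0.00773, and 0.105 without replicate 1 of both groups) and EPS8L1 fell (-0.40 ± 0.12, 0.0237). Beside the NLRP9 to NLRP5 cluster the splicing factor gene U2AF2 rose (0.22 ± 0.06, 0.0184). EPS8L1 was not called without ASO-L1 replicate 1 (0.0731), SO-L1 replicate 1 (0.106) or 3 (0.0542), or replicate 1 (0.26) or 3 (0.0506) of both groups, nor U2AF2 without SO-L1 replicate 1 (0.0527) or 3 (0.0718), or replicate 1 (0.0891) or 3 (0.141) of both groups.

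**Figure D5:**
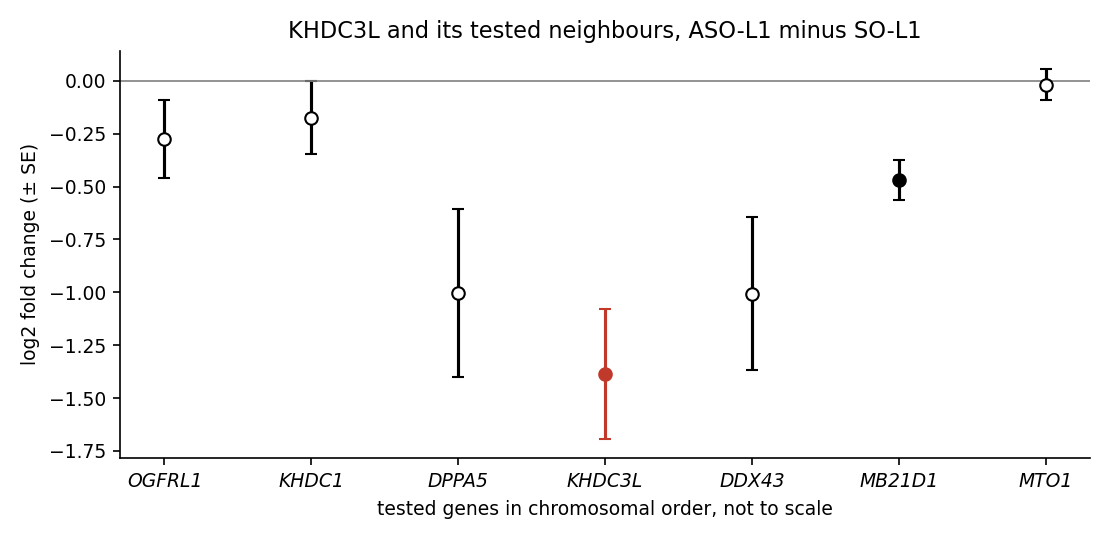
Log2 fold change (ASO-L1 minus SO-L1, ± SE) of KHDC3L (red) and of the 3 nearest tested genes on each side, in chromosomal order. Filled points have an adjusted p under 0.05. KHDC3L (-1.39) has the lowest value, DPPA5 and DDX43 stand at -1.003 and -1.01, and MTO1 at -0.02.

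Paralogs and relatives of the members gave mixed results. The 8 tested paralogs of TLE6 and PADI6 had a median log2 fold change of -0.24. Of these 8, 1 was called, against 33.7% of all tested genes. This was TLE4, a full-length Groucho corepressor, at 21.0, 19.8 and 22.4 CPM in ASO-L1 and 33.2, 35.0 and 32.5 in SO-L1 (-0.67 ± 0.08, adjusted p = 0.00145 by edgeR). The other 7 lay between -0.33 ± 0.23 for PADI2 and 0.12 ± 0.07 for TLE3, with TLE1 at -0.03, TLE2 at -0.18, AES at -0.20, PADI3 at -0.27 and PADI4 at -0.29. With the block AES was called as well (0.0133).

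Among 8 tested genes of the wider NLR family, 2 rose and 1 fell, against 18% and 15.7% of all tested genes. NLRP1, an inflammasome sensor, rose to 14.98, 27.5 and 16.0 CPM in ASO-L1, against 9.67, 8.75 and 9.07 in SO-L1 (1.08 ± 0.22, adjusted p = 0.00789 by edgeR). NOD1, a sensor of bacterial cell walls, rose (0.51 ± 0.15, 0.0231) and NLRX1, a mitochondrial member, fell (-0.41 ± 0.11, 0.0168). NLRP12 was at -0.26 ± 0.12 (0.129), and with the replicate block it was called lower (-0.26 ± 0.09, 0.0223), which makes 2 higher and 2 lower. The block fit called 22.5% of all tested genes lower. NLRX1 was not called without ASO-L1 replicate 1 (0.0646), SO-L1 replicate 1 (0.058) or 3 (0.062), or replicate 1 of both groups (0.167). NOD1 was not called without ASO-L1 replicate 1 (0.0505) or 3 (0.0556), SO-L1 replicate 2 (0.0538) or 3 (0.0605), or replicate 1 (0.0915) or 3 (0.111) of both groups.

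Of 12 tested inflammasome partners and effectors, 1 rose and 4 fell, with a median of -0.33. Over all tested genes 18% were called higher and 15.7% lower. PYCARD, the adaptor that pyrin domains recruit, fell to 4.25, 3.99 and 3.93 CPM in ASO-L1, against 7.59, 5.98 and 6.85 in SO-L1 (-0.75 ± 0.14, adjusted p = 0.00423, and 0.0703 without replicate 1 of both groups). TXNIP, a regulator of thioredoxin, rose (0.92 ± 0.09, 9.92e-04), and NINJ1 (-0.32 ± 0.08, 0.0134) and DFNA5, a gasdermin gene (-0.43 ± 0.13, 0.0261), fell. The fourth lower gene was the cytokine gene IL18, at 139 reads in all (-0.81 ± 0.28, 0.0470), which DESeq2 (0.136) and limma-voom (0.0515) did not call and which was lost on leaving out any single library other than SO-L1 replicate 2 (0.085 to 0.171), without replicate 1 (0.225) or 3 (0.242) of both groups and with no filter (0.0904). NINJ1 and DFNA5 were not called without SO-L1 replicate 1 (0.0519 and 0.0993) or without replicate 1 (0.148 and 0.189) or 3 (0.129 and 0.14) of both groups, and DFNA5 also not without ASO-L1 replicate 1 (0.0572) or SO-L1 replicate 3 (0.108). CASP1 and IL1RN had no read in any library.

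Of 43 maternal-effect and oocyte genes outside the members, 20 were tested, with 3 called higher, 2 lower and a median of -0.17. In the same fit 18% of all tested genes were called higher and 15.7% lower. CNOT6L, a deadenylase subunit of maternal mRNA decay, fell to 21.0 ± 2.26 CPM in ASO-L1, against 31.7 ± 1.18 in SO-L1 (-0.59 ± 0.10, adjusted p = 0.00256 by edgeR). DPPA3, a maternal chromatin factor, also fell (-0.88 ± 0.16, 0.00382, and 0.0609 without replicate 1 of both groups). KPNA2, an importin (0.23 ± 0.06, 0.0172), and ZFP36L2, an RNA-decay factor (0.27 ± 0.07, 0.0173), rose, and both calls were lost without SO-L1 replicate 3 (0.0625 and 0.0802), without replicate 1 (0.0834 and 0.136) or 3 (0.132 and 0.0735) of both groups. KPNA2 was also lost with upper-quartile factors (0.0512) and without ASO-L1 replicate 1 (0.0505) or SO-L1 replicate 2 (0.0513), and ZFP36L2 without SO-L1 replicate 1 (0.0751). AGO2, an Argonaute gene, was the third higher gene (0.25 ± 0.08, 0.0375), and was not called on leaving out any single library other than SO-L1 replicate 2 (0.0519 to 0.14), without replicate 1 (0.231) or 3 (0.101) of both groups, or with library totals (0.0643) or upper-quartile factors (0.0633). ZBED3, a partner of the complex in mice, was at 0.10 ± 0.17 (0.675). With the replicate block 5 of the 20 were higher and 7 lower, in a fit that called 45.7% of all genes and 22.5% lower. Library totals alone gave 2 higher and 2 lower, and upper-quartile factors 1 higher and 2 lower. Of all tested genes these fits called 17.9% and 18.3% lower. They called 2653 and 2644 genes higher, against 3031 in the main fit.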

How the data were processed

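Read counts per gene symbol were deposited by the authors and used as raw counts, and no column lacked a sample. Per the submitters' processing notes, the build was hg19 and the tools were Trim Galore 0.4.0, Subread 1.5.0 with featureCounts, and TopHat2 2.0.13, without stated roles. The annotation, the strand setting and the kind of duplicate removal that the table's title names are not given there. Duplicate removal without molecular identifiers lowers the most abundant genes. The deposited log2 values are normalised and batch-corrected per the authors' title. The authors' deposited comparison table holds, per the file headers, log2 fold changes, mean expression, p-value columns, and t and log-odds score columns. Its model is not stated. Its fold changes have the sign of ASO-L1 minus SO-L1.

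The members and lists were chosen with earlier results of these data known. All 10 members are named. Of each list, the up to 4 tested genes with the smallest p are named, with all tested paralogs and chromosome 6 relatives. Up to 3 tested neighbours on each side of a member locus were counted, and those of KHDC3L and the called ones elsewhere are described. The named markers, ZBED3, IL18, AGO2, CASP1 and IL1RN fall outside this rule and were chosen after their values were seen. Genes were filtered by filterByExpr of edgeR 4.0.16 (minimum count 10, minimum total 15), leaving 16873. The test was edgeR's quasi-likelihood test with TMM factors and Benjamini-Hochberg adjustment over all of these, two-sided, with calls at 0.05. An SE is the log2 fold change over the square root of F. Alternatives used DESeq2 1.42.0, limma 3.58.1, other factors and filters, left-out libraries and a replicate block. The code was tested on simulated data.

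Replicate numbers were taken as pairs only in the replicate block and in the differences within replicate numbers. The main test had no replicate term. Deviations from group means correlated at 0.102, 0.377 and 0.211 for numbers 1, 2 and 3, although ASO-L1 replicate 1 correlated more with SO-L1 replicate 3 (0.162). Chi-square tests found replicates of a group to differ beyond sampling noise (at least 2.05 for each degree of freedom).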

Additional observations from a re-analysis of the deposited data

How the results depend on the processing

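The log2 fold changes of KHDC3L, NLRP4, TLE6, NLRP2 and NLRP7 stayed below 0 under all 18 alternatives. Without single libraries or numbers they ran from -1.61 to -1.12 for KHDC3L, -0.93 to -0.57 for NLRP4, -0.56 to -0.32 for TLE6, -0.23 to -0.080 for NLRP2 and -0.23 to -0.033 for NLRP7. NLRP11 ran from -0.012 (without SO-L1 replicate 2, a reversal) to 0.40, and passed the count filter in only 13 of the alternatives. With no filter KHDC3L was not called at -1.40. NLRP4 was not called at -0.75 by DESeq2 or at -0.73 by limma-voom. The replicate block called TLE6 at -0.46 and NLRP2 at -0.16. Without replicate 2 of both groups the block, an alternative chosen after seeing the data, called NLRP2 at -0.15 and NLRP7 at -0.14. The called members numbered 2 in all, 1 by DESeq2, by limma-voom and with no filter, 4 with the replicate block, and 0 to 4 without libraries. The block without replicate 2 also called 4, with NLRP7 in place of TLE6 (TLE6 at -0.38, adjusted p = 0.0577). Calls over all genes numbered 5684, and 1183 to 7197 without libraries. The fewest came without replicate 1 of both groups, at 6.95% of tested genes, against 33.7% in the main fit. Calls lost in such fits were lost among all genes as well as among those named.

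Among the companion lists, the replicate block called 2 paralogs, 1 chromosome 6 relative and 12 maternal-effect genes, in place of 1, 0 and 5. Without replicate 2 as well it called 3, 1 and 11. Of all tested genes 45.7% were called with the block and 42.7% with the block without replicate 2. No filter gave 2 of 9 tested paralogs and 10 of 40 tested maternal-effect genes, where the main fit tested 8 and 20. It called 18.3% of all genes. Limma-voom gave 1 chromosome 6 relative, with 33.7% of all genes called. Upper-quartile factors gave 3 of 20 maternal-effect genes, with 34% of all genes called. Leaving out libraries was a choice made after seeing the data for these lists. The counts then ran from 1 to 4 for the NLR family, 1 to 6 for inflammasome genes and 1 to 3 for paralogs. They ran from 0 to 1 for chromosome 6 relatives, 1 to 11 for maternal-effect genes, 0 to 10 for imprint maintenance and 2 to 6 for actin genes. The tested numbers changed too, from 8 to 10 in the NLR family and 20 to 23 among maternal-effect genes. Of all tested genes these fits called from 6.95% (without replicate 1 of both groups) to 41.7% (without replicate 2 of both groups). The block kept the calls of KHDC3L and NLRP4 and called neither NLRP7 nor NLRP11. Scaling moved the median of all genes by less than 0.1. The cause of these shifts was not tested. Where 1 library of a group was left out, its group kept 2. Read depth limits OOEP, PADI6, NLRP5, NLRP9 and NLRP11.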

Other observations

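Genes that keep imprints, the process to which maternal NLRP2, NLRP5 and NLRP7 are linked, moved in both directions. The 17 tested had a median log2 fold change of -0.14. Of these 17, 4 rose and 4 fell, against 18% of all tested genes called higher and 15.7% lower. The balance depended on the scaling, with 2 higher and 5 lower by library totals alone and 1 higher and 5 lower by upper-quartile factors. Calls over all genes moved the same way. They were 3031 higher and 2653 lower in the main fit, 2653 and 3026 by library totals, and 2644 and 3091 by upper-quartile factors. DNMT3L, a cofactor of DNA methylation, fell to 57.5 ± 7.24 CPM in ASO-L1, against 79.9 ± 2.90 in SO-L1 (SD, n = 3 each; -0.47 ± 0.09, adjusted p = 0.00468 by edgeR). ARID4B, a chromatin protein linked to imprinting in mice, rose (0.34 ± 0.08, 0.00741), and so did TRIM28, the corepressor of imprint-binding zinc finger proteins (0.24 ± 0.07, 0.0217). Without replicate 1 of both groups none of the 17 was called by edgeR, in a fit that called 6.95% of all genes. With upper-quartile factors TRIM28 was not called (0.051), nor without SO-L1 replicate 2 (0.0653) or 3 (0.0699), or replicate 3 of both groups (0.115). DPPA3, described among the maternal-effect genes, was the fourth named gene of the list.

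Actin and spindle genes, chosen because the subcortical complex is known to act on actin in mouse oocytes, had 2 higher and 4 lower of 11 tested, with a median of -0.16 (1 higher and 4 lower with upper-quartile factors). The main fit called 18% of all tested genes higher and 15.7% lower, and the fit with upper-quartile factors called 18.3% lower. CFL2, a cofilin that severs actin filaments, rose to 47.1 ± 9.69 CPM in ASO-L1, against 21.5 ± 3.13 in SO-L1 (1.13 ± 0.15, adjusted p = 0.00199 by edgeR). SSH1, a phosphatase that activates cofilin, fell to 30.6 ± 2.56 CPM in ASO-L1, against 46.7 ± 3.03 in SO-L1 (-0.61 ± 0.09, 0.00194). ACTN4 (-0.28 ± 0.06, 0.00836) and SPIRE1, an actin nucleator (-0.34 ± 0.09, 0.0188), fell, and neither was called without replicate 1 (0.0876 and 0.155) or 3 (0.0647 and 0.116) of both groups. SPIRE1 was also lost without ASO-L1 replicate 1 (0.0591) or 3 (0.0506) or SO-L1 replicate 1 (0.0591).

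Over the 6 libraries, the centred log2 CPM profile nearest to that of NLRP2, the member with the highest CPM, was that of FAM114A2, with a root mean square difference of 0.022 log2 units among 10101 genes compared. NCAPD3, SKIV2L2, GRK6 and SOX2 followed at 0.0226, 0.0239, 0.026 and 0.0277. None of the 5 was called.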
